A study of Mus musculus with 346 samples.

Results

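The cells described here are collagen-producing cells of the mouse pancreas at embryonic day E14.5, which were set apart by whether they held transcripts of Prox1. Both steps used the measured values themselves: the cells were selected on Col1a1 and the sides chosen by Prox1. They are the 58 of 73 cells of the E14.5 pancreas plate whose deposited value for Col1a1, which encodes the main chain of type I collagen, was at least 5 on a log2 scale. They make up 79.5% of the plate (exact Clopper-Pearson 95% interval 68.4 to 88.0) and come from a series of 346 cells. The Prox1-positive side holds the 10 collagen cells with at least 5 normalized reads of Prox1, the limit of detection used throughout; values below are log2(normalized reads + 1) unless stated. The Prox1-empty side holds the 47 collagen cells without a single Prox1 read. The remaining collagen cell, with Prox1 at 2.53, lay just under the limit and belongs to neither side.

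The series holds single cells of embryos with the transgene Tg(Prox1-EGFP), labelled with the genotype Prox1-GFP, taken from the foregut at E8.5, the dorsal and ventral pancreatic buds and the liver at E10.5, and the pancreas at E14.5. All of them, on both sides alike, were sorted for green fluorescent protein (GFP), so no cell without GFP was measured. Both sides and the 15 plate cells without a Col1a1 read share the genotype, the stage, the tissue and the plate. The labels name no animal or litter, so each side counts as 1 sample, no test was run, and a mean is followed by ± its SD over cells (n = 10 Prox1-positive and 47 Prox1-empty cells).

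Prox1 is a homeobox transcription factor that is known for its part in the development of the liver, the pancreatic epithelium and the lymphatic endothelium. The embryonic pancreas consists of an epithelium that gives rise to acinar, duct and endocrine cells, and of a surrounding mesenchyme that produces collagens and growth factors and includes pericytes, the cells that wrap small vessels. Cd248, also called endosialin, is a surface protein of fibroblasts and pericytes, and Pdgfra and Pdgfrb are receptors that mark fibroblasts and mural cells.

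The label of this plate names pancreatic epithelium as the source, and the collagen cells went against it. None of the 14 epithelial genes examined, among them Epcam, Cdh1 and Krt8, had a read in a Prox1-positive cell. In the Prox1-empty cells 11 of the 14 had no read, and Cdh1, Krt18 and Spint2 had reads in 1 cell each. The summed level of the 14 genes was 0 in every Prox1-positive cell and 0 to 7.94 in the Prox1-empty cells, with a median of 90.46 and a maximum of 108.05 in the 15 cells without Col1a1. In those 15 cells Krt8, an epithelial keratin, averaged 9.06 ± 3.85 on the log2 scale and was detected in 13, while Cd248 was detected in 0, a count that allows a share of up to 20%. The cells are therefore called collagen cells here, after the gene that chose them.

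The Prox1-positive cells had 545583 to 1080041 reads (median 868762) and the Prox1-empty cells 510724 to 1012693 (median 806388). A median of 3308.5 genes had a read in a Prox1-positive cell, against 2925 in a Prox1-empty cell. With every cell thinned to 500000 reads the medians were 3233.5 genes in Prox1-positive and 2837 in Prox1-empty cells. The part of this gap in the differences below was not tested. Mitochondrial reads made up a median of 2.01% in Prox1-positive and 1.86% in Prox1-empty cells. A Y-linked gene had a read in 9 of the 10 Prox1-positive and 43 of the 47 Prox1-empty cells, and Xist had none in any of the 58. Elsewhere in the series a Col1a1 value of at least 5 was found in 8 of 86 dorsal bud cells, 14 of 78 liver cells and 1 of 82 foregut cells, and in 0 of 27 ventral bud cells. At least 2 epithelial genes were detected in 7 of the 8 collagen cells of the dorsal bud and in 2 of the 14 of the liver, but in 0 of the 58 at E14.5.

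Prox1 (chr1:190118035-190170714 on GRCm38) chose the sides, so its levels are a description. The 10 Prox1-positive cells had values of 4.18, 4.55, 5.40, 5.43, 6.22, 6.35, 6.55, 8.82, 9.22 and 9.25, with a mean of 6.60 ± 1.88. In reads these values stand for 17 to 415 per cell with a median of 58. The lowest value inside the limit was thus 4.18 and the nearest one outside it 2.53.

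The 15 cells without Col1a1 averaged 10.15 ± 2.66 for Prox1, with a lowest value of 2.21, a median of 10.85 and a highest of 12.50. All 15 had a Prox1 read and 14 reached the limit, with a median of 1688 reads per cell. The Prox1-positive collagen cells therefore lay mostly below the other cells of the plate, and the ranges overlapped. Of the 58 collagen cells 17.2% were Prox1-positive (95% interval 8.59 to 29.4), and 47 had no Prox1 read although all had been sorted for GFP. On the plate, 13 wells held a cell with Prox1 of at least 8 and no Col1a1. Every Prox1-positive and every Prox1-empty collagen cell shared a plate row or column with at least 1 of these wells. The median number of such wells in the same row was 1 for Prox1-positive and 2 for Prox1-empty cells, and in the same column 1 for both. Transfer of RNA between wells was not tested. Prox1os, which overlaps Prox1 on the opposite strand, had no read in any collagen cell.

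**Figure D1:**
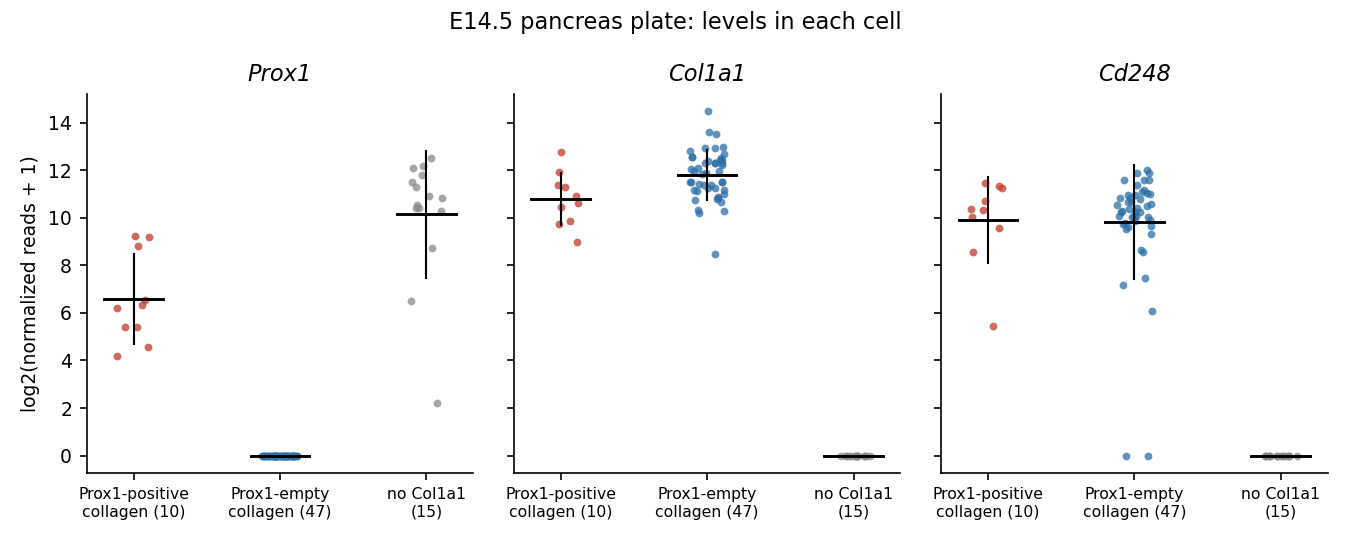
Level of Prox1, Col1a1 and Cd248 in each cell of the E14.5 pancreas plate, as log2(normalized reads + 1), for Prox1-positive collagen cells (10), Prox1-empty collagen cells (47) and cells without Col1a1 (15). Points are cells, the horizontal bar is the mean and the vertical bar 1 SD over cells. Prox1 and Col1a1 chose the groups. Cd248 has a mean of 9.91 in the Prox1-positive and 9.81 in the Prox1-empty cells and is 0 in all cells without Col1a1.

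Markers of endothelial and immune cells were absent from the Prox1-positive cells. The 4 lymphatic endothelium genes in the table, Flt4, Pdpn, Reln and Mmrn1, had no read there, nor had any of the 12 blood endothelium genes, such as Pecam1 and Cdh5, or the 9 immune genes, such as Ptprc. The summed level of each of these 3 lists was 0 in every Prox1-positive cell. In the Prox1-empty cells the summed levels were 0 to 9.02 for lymphatic endothelium, 0 to 16.54 for blood endothelium and 0 to 9.07 for immune genes. For comparison, the sums reached 13.97, 103.18 and 84.64 in the cells without Col1a1. A count of 0 in 10 cells allows a share of up to 30%, so these lists bound the Prox1-positive cells only loosely. Other lists were not empty there. A neural or Schwann gene was detected in 3 of the 10 Prox1-positive and 7 of the 47 Prox1-empty cells. An erythroid gene was detected in 2 of the 10 Prox1-positive and 3 of the 47 Prox1-empty cells.

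Pancreatic epithelial programmes were sparse as well. Of 14 progenitor, acinar and duct genes in the table, 13 had no read in the Prox1-positive cells, including Pdx1, Nkx6-1 and Sox9. The other was detected in 1 Prox1-positive cell, that of well F8, at 8.68. Among the Prox1-empty cells Cpa1, which encodes an acinar carboxypeptidase, was detected in 3 cells and Sox9, a factor of progenitors and ducts, in 2. Of 19 endocrine genes in the table, Isl1 alone was detected in Prox1-positive cells, in 4 of 10, and it was detected in 12 of 47 Prox1-empty cells. Isl1 is a LIM-homeobox factor of both endocrine cells and the mesenchyme beside the dorsal pancreas, and its endocrine companions Neurog3, Neurod1 and Chga had no read in any collagen cell. Of 7 hepatoblast genes 6, among them Alb, Afp and Ttr, had none either. The other had a read in 1 collagen cell, the Prox1-positive cell of well F12, at 1.98, below the limit of detection.

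Some stroma and matrix genes had similar mean levels on both sides, while other members of these lists, some given below, differed by at least 1. Cd248 (chr19:5068078-5070682) ran from 5.46 to 11.48 with a median of 10.34 in the Prox1-positive cells, against 0 to 12.01 with a median of 10.28 in the Prox1-empty cells. It was detected in 10 of 10 Prox1-positive and 45 of 47 Prox1-empty cells. Its means of 9.91 ± 1.80 in Prox1-positive and 9.81 ± 2.40 in Prox1-empty cells differed by 0.10, well within the spread over cells. Col3a1, the main chain of type III collagen, averaged 12.02 ± 1.03 in Prox1-positive and 12.18 ± 0.85 in Prox1-empty cells. Itm2a, a membrane protein of mesenchymal cells, averaged 12.44 ± 0.68 in Prox1-positive and 12.48 ± 0.90 in Prox1-empty cells. Ptn, a secreted heparin-binding growth factor, averaged 10.83 ± 0.41 in Prox1-positive and 10.93 ± 0.79 in Prox1-empty cells. Col3a1, Itm2a and Ptn were detected in all 58 collagen cells, and the sides overlapped for each.

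Col1a1 itself (chr11:94936224-94953042), which chose the cells, ran from 9.0 to 12.77 with a mean of 10.80 ± 1.11 in Prox1-positive cells. In Prox1-empty cells it ran from 8.47 to 14.51 with a mean of 11.80 ± 1.05. The difference of -1.0 ranged from -1.22 to -0.80 when each Prox1-positive cell was left out in turn, and all 10 Prox1-positive cells lay within the range of the Prox1-empty cells. No cell of the plate lay between 0 and 8.47 for Col1a1, so the limit of 5 fell in a gap.

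For nearly all genes the difference between the sides was smaller than the spread over the cells of 1 side. Of 7850 genes with a mean of at least 1 on a side, 1977 (25.2%) had a mean at least 1 higher in the Prox1-positive cells and 1205 (15.4%) a mean at least 1 lower. These shares are the background for every list below. The median difference over the 7850 genes was 0.28, with quartiles of -0.55 and 1.01. It was 0 over all 20474 genes without the limit on mean level and 0.61 over the 3179 genes with a mean of at least 3, so it is read only for this set of genes. With the ratio of linear means in place of the difference of mean log2, 1341 genes were higher and 1799 lower by at least 1, so the share of higher genes among those past 1 was 42.7%, against 62.1% in the main comparison. The balance of higher and lower genes therefore depends on how the cells are averaged. A difference beyond the larger of the 2 SDs was found for 15 genes higher (0.191%) and 3 lower (0.0382%). Prox1, by rule, was the 1 gene (0.0127%) whose sides did not overlap. The share of cells with the gene was at least 50 points higher for 19 genes (0.242%) and at least 50 points lower for 1 (0.0127%), which was Smoc2.

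The most marked regulator among the genes with higher means was Osr1 (chr12:9570116-9581500), a zinc-finger transcription factor of the lateral and intermediate mesoderm and its mesenchyme. Osr1 ran from 8.14 to 11.14 with a median of 9.16 in the Prox1-positive cells, against 0 to 10.91 with a median of 0 in the Prox1-empty cells. It was detected in 10 of 10 Prox1-positive and 22 of 47 Prox1-empty cells and in 0 of the 15 cells without Col1a1. All Prox1-positive cells thus had a high Osr1 level, and of the Prox1-empty cells 23 had a read, 1 of them below the limit. The means were 9.29 ± 1.06 in Prox1-positive and 4.15 ± 4.54 in Prox1-empty cells, a difference of 5.14. That difference ranged from 4.93 to 5.27 when each Prox1-positive cell was left out, a step that was part of the rule naming the gene. Osr2, its close relative, was detected in 9 of 10 Prox1-positive and 37 of 47 Prox1-empty cells, with means of 8.97 in Prox1-positive and 7.33 in Prox1-empty cells.

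Snai2 (chr16:14705852-14709385), a zinc-finger repressor known from the change of epithelial cells into mesenchyme, showed a like pattern. It ran from 0 to 10.57 with a median of 8.84 in Prox1-positive cells and from 0 to 10.26 with a median of 1.53 in Prox1-empty cells. It was detected in 9 of 10 Prox1-positive and 21 of 47 Prox1-empty cells. The means of 8.15 ± 3.08 in Prox1-positive and 3.68 ± 3.95 in Prox1-empty cells differed by 4.47. Sema5b, a transmembrane semaphorin that guides axons, was detected in 8 of 10 Prox1-positive and 13 of 47 Prox1-empty cells. Its means were 6.87 ± 4.17 in Prox1-positive and 2.47 ± 4.05 in Prox1-empty cells. Neither gene was detected in a cell without Col1a1.

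The other genes chosen for high means take part in general cell functions. Arap1 (chr7:101348067-101412586), which inactivates small GTPases, ran from 4.51 to 9.29 with a median of 8.88 in Prox1-positive cells and from 0 to 9.50 with a median of 0 in Prox1-empty cells. It was detected in 10 of 10 Prox1-positive and 13 of 47 Prox1-empty cells. Its means were 8.19 ± 1.55 in Prox1-positive and 2.23 ± 3.70 in Prox1-empty cells, and the difference of 5.96 was the largest of the 12 genes. Uba2, a subunit of the enzyme that activates SUMO, averaged 8.61 ± 1.68 in Prox1-positive and 3.23 ± 4.24 in Prox1-empty cells. Stau1, a protein that binds double-stranded RNA and takes part in mRNA transport, was detected in 9 of 10 Prox1-positive and 8 of 47 Prox1-empty cells. Arap1 and Uba2 were detected in all Prox1-positive cells, Stau1 in all but 1. Lsm4, a part of the ring on U6 small nuclear RNA, had the tightest spread, 8.79 ± 0.93 in Prox1-positive cells, against 4.82 ± 4.18 in Prox1-empty cells. The small GTPase Arl4a, the augmin subunit Haus4, the spliceosomal isomerase Ppil1, the transcription regulator Gpbp1 and the adaptor Sh2d3c had differences of 4.57, 4.55, 4.30, 4.04 and 4.02. In each of these 12 genes some Prox1-empty cells reached levels within the range of the Prox1-positive cells. In the 15 cells without Col1a1, Gpbp1 was detected in 11, Lsm4 in 10, and Arap1, Uba2, Stau1 and Sh2d3c in 7 each. Arl4a was detected there in 6, Ppil1 in 5 and Haus4 in 1.

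Smoc2 (chr17:14279506-14404790), a secreted calcium-binding protein of the matrix, led the genes with lower means. It was 0 in 8 of the Prox1-positive cells and 6.99 and 10.77 in the other 2. The Prox1-empty cells ran from 0 to 12.36 with a median of 10.32, and 34 of 47 were at the limit or above. The means were 1.78 ± 3.85 in Prox1-positive and 7.33 ± 4.96 in Prox1-empty cells. Their difference of -5.55 ranged from -6.55 to -5.35 when each Prox1-positive cell was left out, again a step of the naming rule. Of the 58 collagen cells 17 held both Smoc2 and Osr1, 19 only Smoc2, 16 only Osr1 and 6 neither. Whether the 2 genes tend to exclude each other was not tested.

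Fbn2, a fibrillin of microfibrils in embryonic tissue, was detected in 1 of 10 Prox1-positive and 27 of 47 Prox1-empty cells, with means of 0.97 ± 3.06 in Prox1-positive and 4.86 ± 4.32 in Prox1-empty cells. Wasf2, which promotes branching of actin filaments, averaged 2.98 ± 3.73 in Prox1-positive and 7.12 ± 3.74 in Prox1-empty cells. Sorbs3, an adaptor that binds vinculin at cell adhesions, was detected in 3 of 10 Prox1-positive and 34 of 47 Prox1-empty cells with a difference of -3.89. These 3 genes, with Smoc2, concern the matrix, the cytoskeleton or adhesion. The others served the mitochondria, peroxisomes, secretory pathway or nucleus. Ndufa10, a subunit of respiratory complex I, and Slc25a17, a peroxisomal transporter, had differences of -3.86 and -3.12. Creb3l2, a membrane-bound factor that controls secretory genes, and Kdelc1, a protein of the endoplasmic reticulum, had -2.85 and -3.17. The ATPase Ruvbl1, the co-regulator Zmiz1 and the membrane protein Smim7 had -3.38, -3.13 and -3.59. Fbn2, Sh2d3c and Zmiz1 overlap exons of a gene in the table on the opposite strand, and the library is not stated to keep strand. Each of those partners had a read in 3 collagen cells. Surf4, among the variable genes below, overlaps Surf2 in the same way, and Surf2 had a read in 0 Prox1-positive and 11 Prox1-empty cells.

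**Figure D2:**
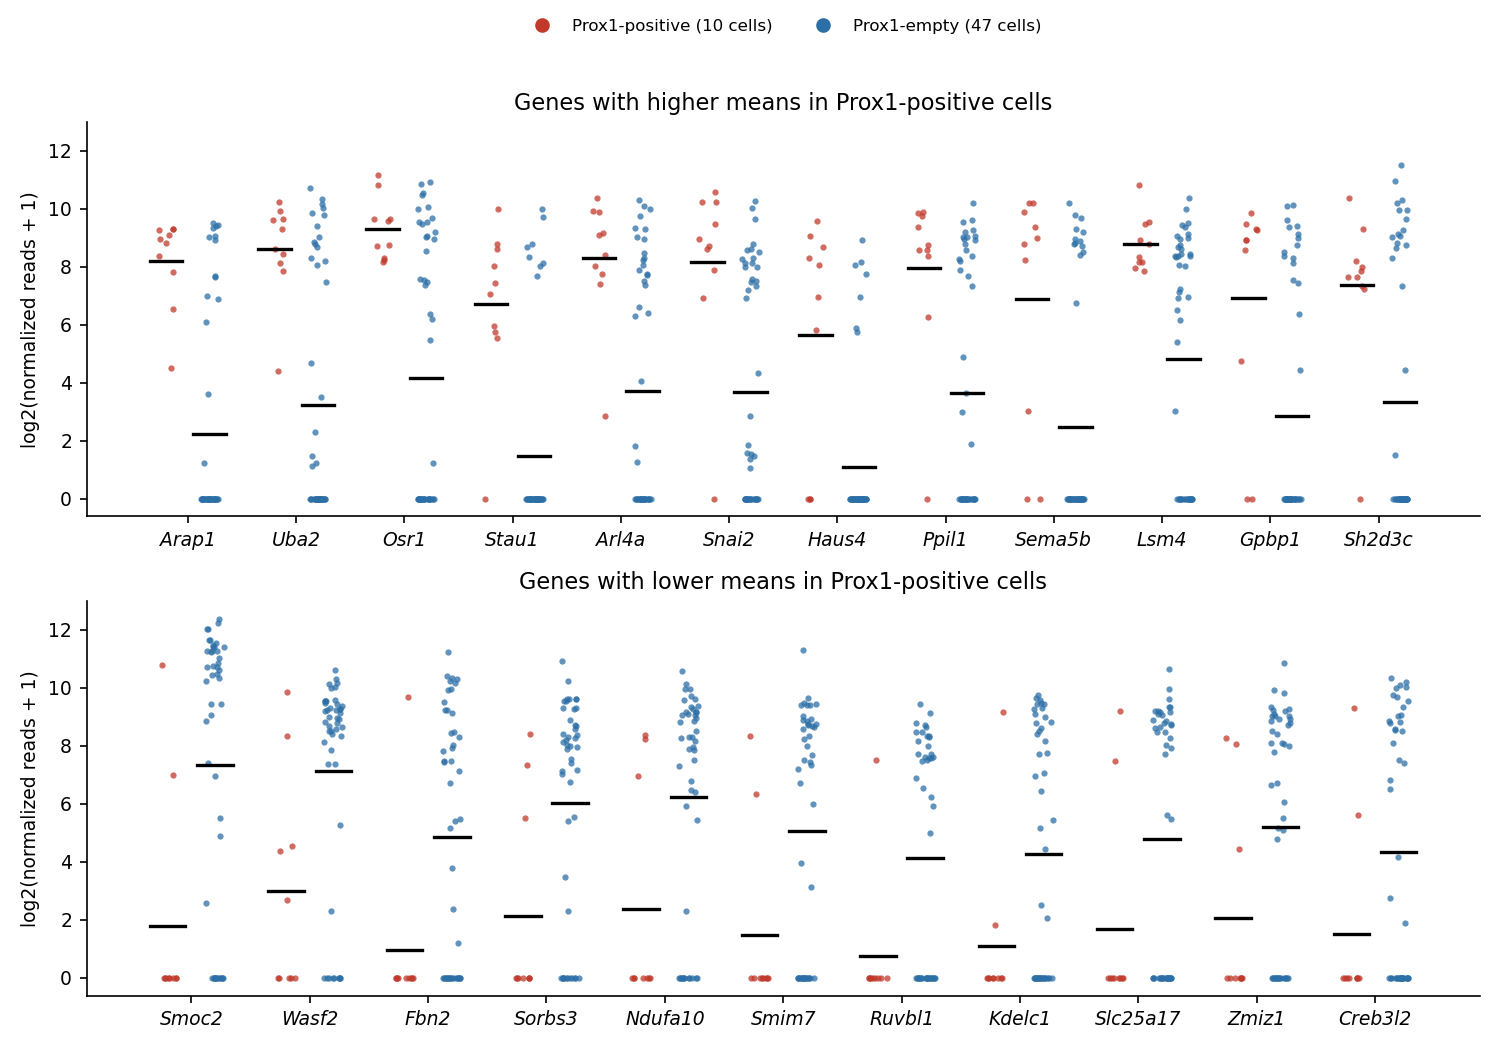
Level in each cell, as log2(normalized reads + 1), of the genes named for the highest (upper panel) and the lowest (lower panel) differences of means, Prox1-positive cells (10) left and Prox1-empty cells (47) right of each gene name. Points are cells and black bars are means. For every gene shown the 2 sides overlap, and most Prox1-empty cells of the upper panel lie either at 0 or at the level of the Prox1-positive cells, as for Osr1, which 22 of 47 held.

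The lists of mesenchyme genes did not part the sides in 1 direction. Their medians stand beside a median difference of 0.28 over all 7850 counted genes. Of 16 matrix genes counted of 19, 6 had means at least 1 higher and 4 at least 1 lower in Prox1-positive cells, with a median difference of -0.30. That median was -0.18, -0.12, -0.52 and -0.17 without the cells of wells D1, D4, E5 and F12. Col5a2, a chain of type V collagen, averaged 9.60 ± 1.29 in Prox1-positive and 7.35 ± 3.59 in Prox1-empty cells. Col6a2, a chain of type VI collagen, averaged 10.16 ± 0.96 in Prox1-positive and 7.88 ± 4.13 in Prox1-empty cells. Both were detected in every Prox1-positive cell. The partner chain Col6a1 averaged 9.46 ± 3.35 in Prox1-positive and 7.94 ± 4.14 in Prox1-empty cells, a difference of 1.52 that was 2.57 without the cell of well D1. Mfap4, a microfibril protein, averaged 4.39 ± 4.30 in Prox1-positive and 6.96 ± 3.87 in Prox1-empty cells.

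The leucine-rich proteoglycans Lum and Dcn, which bind collagen fibrils, went opposite ways. Lum was detected in 2 of 10 Prox1-positive and 23 of 47 Prox1-empty cells, with means of 2.00 ± 3.82 in Prox1-positive and 4.51 ± 4.65 in Prox1-empty cells. Dcn was detected in 9 of 10 Prox1-positive and 30 of 47 Prox1-empty cells, with means of 8.17 ± 3.13 in Prox1-positive and 6.15 ± 4.90 in Prox1-empty cells. Of 11 stroma genes counted of 13, 2 were higher and 2 lower by at least 1, with a median of -0.09. The mesenchymal homeobox gene Prrx1 averaged 6.75 ± 2.87 in Prox1-positive and 5.28 ± 4.19 in Prox1-empty cells. The matrix glycoprotein Sparcl1 averaged 8.75 ± 4.02 in Prox1-positive and 10.02 ± 2.02 in Prox1-empty cells, and its difference of -1.26 was -0.29 without the cell of well D1 and -0.60 without that of well E6.

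Among the regulators of gut and pancreas mesenchyme, most of them transcription factors, 11 of 18 were counted, 4 higher and 2 lower by at least 1, with a median of 0.74. Tcf21, a basic helix-loop-helix factor of visceral mesenchyme, was detected in 6 of 10 Prox1-positive and 13 of 47 Prox1-empty cells. Its means of 5.23 ± 4.54 in Prox1-positive and 1.99 ± 3.29 in Prox1-empty cells differed by 3.23, the largest difference of the list. Isl1 averaged 3.69 ± 4.78 in Prox1-positive and 1.87 ± 3.33 in Prox1-empty cells, and its difference of 1.83 was 1.11 without the cell of well D1. Meis1, a homeobox cofactor of Hox proteins, was detected in 10 of 10 Prox1-positive and 40 of 47 Prox1-empty cells, with means of 8.65 ± 1.32 in Prox1-positive and 7.56 ± 3.57 in Prox1-empty cells. Its relative Meis2 averaged 2.49 ± 3.08 in Prox1-positive and 4.38 ± 4.00 in Prox1-empty cells. Meis1 and Meis2, which bind DNA alike, thus had means that differed in opposite directions. With the ratio of linear means the median of the list was -0.20, so the list had no direction that held under both averages. On the log2 scale the median was 0.44 without the cell of well E6 and 0.37 without that of well E8. Foxf1, Foxf2, Ptch1 and Hhip, which belong to or respond to Hedgehog signalling in gut mesenchyme, had no read in any collagen cell.

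Of 15 mesenchymal ligands 9 were counted, 2 higher and 2 lower by at least 1, with a median of 0.07. Igf2, a growth factor of the embryo, was detected in every cell, at 11.39 ± 0.37 in Prox1-positive and 11.32 ± 0.66 in Prox1-empty cells. Slit2, a secreted guidance protein, was detected in 10 of 10 Prox1-positive and 33 of 47 Prox1-empty cells, with means of 8.50 ± 2.53 in Prox1-positive and 5.74 ± 3.99 in Prox1-empty cells. Cxcl12, a chemokine, averaged 6.66 ± 4.62 in Prox1-positive and 4.92 ± 4.64 in Prox1-empty cells. Igf1, a growth factor of the insulin family, averaged 4.74 ± 4.34 in Prox1-positive and 6.29 ± 4.56 in Prox1-empty cells, and its difference of -1.55 was -1.02 without the cell of any 1 of wells D1, E7, E8 and F12. Fgf10, a mesenchymal signal that maintains pancreatic epithelial progenitors, and Wnt2 had no read in any collagen cell. At 58 cells a count of 0 allows a share of up to 5.17%.

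Genes known as partners or targets of Prox1 in other tissues were mostly absent. Of 13 such genes 10 had no read in any collagen cell, among them Flt4, Foxc2 and Nr5a2. Nr2f2, a nuclear receptor that binds Prox1 in lymphatic endothelium, was detected in 10 of 10 Prox1-positive and 44 of 47 Prox1-empty cells. Its means were 7.58 ± 1.59 in Prox1-positive and 6.79 ± 2.52 in Prox1-empty cells. Hdac3, a histone deacetylase, averaged 3.61 ± 4.67 in Prox1-positive and 3.79 ± 4.17 in Prox1-empty cells. Kdm1a, a histone demethylase, had no read in the Prox1-positive cells and was detected in 11 of 47 Prox1-empty cells.

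Lists of growth and metabolism genes had median differences between -0.19 and 0.97, against 0.28 over all 7850 counted genes. Of 16 S phase genes 6 were higher and 3 lower by at least 1, with a median of 0.59. That median was 0.32 without the cell of well D4, 0.92 without that of well D1 and 0.99 without that of well E6. Mcm3, a subunit of the replication helicase, averaged 7.45 ± 4.08 in Prox1-positive and 4.42 ± 4.73 in Prox1-empty cells. Its partner Mcm6 averaged 4.59 ± 4.87 in Prox1-positive and 6.49 ± 4.59 in Prox1-empty cells, so subunits of 1 complex differed in opposite directions. The 18 G2/M genes had a median of 0.75 with 5 higher and 0 lower by at least 1. That median depended on which cells were kept: it was -0.05 without the cell of well E7 and 0.01 without that of well D4. Without all 7 cells with at least 14 G2/M genes, 2 Prox1-positive and 5 Prox1-empty, it was 0.65 over the members then counted.

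Among 6 immediate early and heat shock genes counted of 16, 3 were higher and 0 lower by at least 1, with a median of 0.97. That median was 0.32 without the cell of well H4, 0.56 without that of well F8, and 0.15 with the members below the limit on mean level included. Dusp1, a phosphatase that ends kinase signals, averaged 4.43 ± 4.73 in Prox1-positive and 2.14 ± 3.63 in Prox1-empty cells. Of 12 glycolysis genes counted of 14, 3 were higher and 1 lower, with a median of 0.23. Leaving out 1 Prox1-positive cell gave 0.04 for well D4, 0.09 for E5, 0.37 for E7 and 0.65 for F12. Pfkl, a subunit of phosphofructokinase, averaged 5.84 ± 4.76 in Prox1-positive and 2.61 ± 4.33 in Prox1-empty cells. Of the 13 imprinted growth genes, all counted, 1 was higher and 1 lower, with a median of -0.19. Mest, a paternally expressed gene of the embryo, was detected in every cell, at 12.37 ± 0.70 in Prox1-positive and 12.25 ± 0.69 in Prox1-empty cells.

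**Figure D3:**
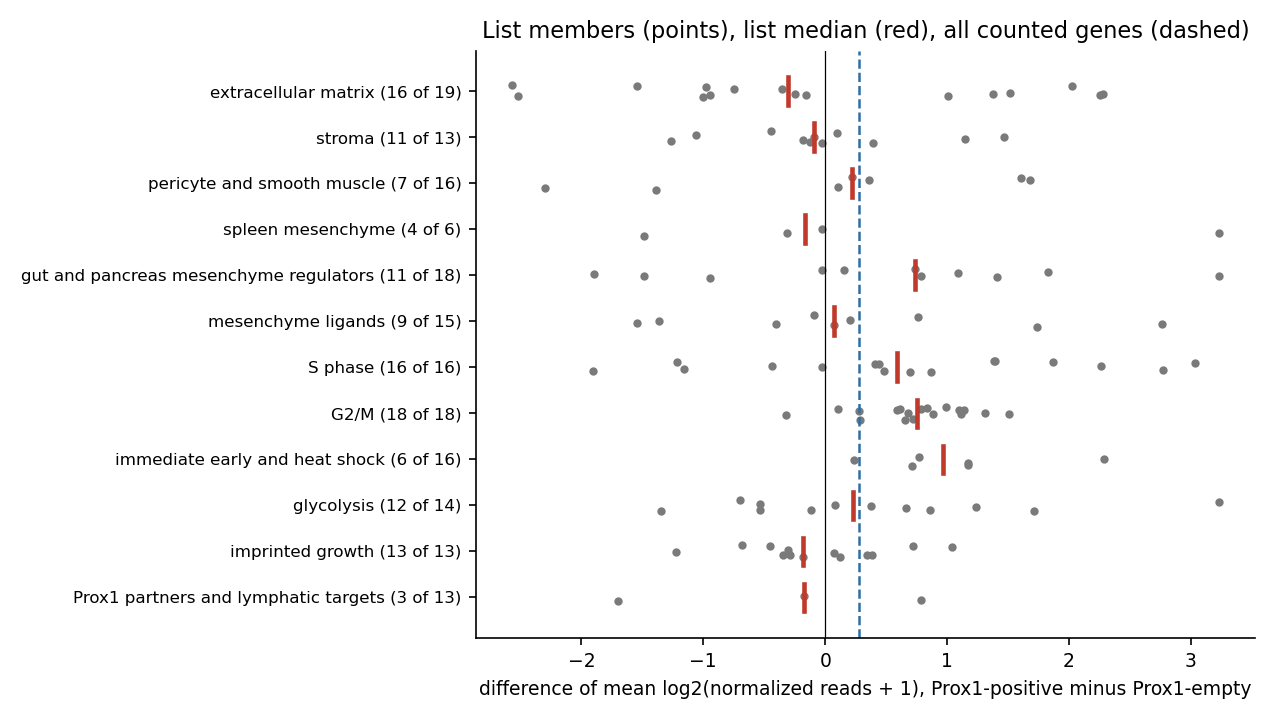
Difference of mean log2(normalized reads + 1), Prox1-positive minus Prox1-empty cells, for the counted members of 12 gene lists. Each grey point is a gene, the red bar is the list's median, the dashed line is the median of all 7850 counted genes (0.28, or 0 without the limit on mean level), and the numbers after each name give the members counted of those listed. List medians run from -0.30 for extracellular matrix to 0.97 for immediate early and heat shock genes, and members lie on both sides of 0 in every list but the last named.

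Among all 58 collagen cells, the genes that varied most for their mean level were ones found at a high level in most cells and not detected in the rest. The 15 most variable genes were detected in 46 to 49 cells each. S1pr3, a receptor for sphingosine-1-phosphate, was detected in 46 cells with 9.93 ± 1.55 in those cells. Mmp2, a gelatinase that cuts matrix, was detected in 49 with 10.38 ± 1.21. Osr2 was detected in 47 with 9.43 ± 1.42, and Col6a1 in 48 with 9.97 ± 1.56. The others included the adhesion protein Flrt2, the protease inhibitor Serpine2, the actin-severing protein Gsn and Capn6, besides genes of general function such as Surf4, Eif4h, Anapc5, Tmbim6, Arcn1 and Ywhab. All 15 fell in the highest of 20 bins of mean level, which held all means from 7.57 upwards. With 100 narrower bins 5 of the 15 remained, namely Mmp2, Col6a1, Col6a2, Capn6 and Gsn, and Tgfbi, a secreted adhesion protein induced by TGF-beta, came first. Smoc2, in the leading 15 with narrow bins, was detected in 36 cells with 10.06 ± 2.24 in those. By contrast 90 genes were detected in all 58 cells.

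The largest axis of variation ran with the number of genes per cell. The first principal component of the 1000 most variable genes held 4.25% of their variance. Its high end was led by Rrm1, Uhrf1, Mcm3, Top2a, Kif26b and Spc24, most of which serve DNA replication or mitosis, and its low end by Smoc2, Sec23b, Pigs and Serpine2. Across the 58 cells the score had Pearson r = 0.90 with the number of genes per cell and 0.74 with the number of S phase genes detected. All 3 measures come from the same library of each cell, so these are descriptions of shared content. With all S phase and G2/M genes of the lists left out, the component held 4.01% of the variance, had r = 0.99 with the score above and 0.88 with genes per cell, and shared 14 of its 20 leading genes. The Prox1-positive cells scored -35.5 to 56.6 with a median of 7.49 and the Prox1-empty cells -41.2 to 54.6 with a median of -8.46, ranges that overlapped almost throughout. The second component (2.84%) set Mcm5, Mcm6, Smoc2 and Postn against Dpf2, Boc and Cdk6. The third (2.74%) set Tspan18, Nnat and Emilin1 against Dcn, Nid2, Sulf1, Gramd1a and Bgn.

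A small set of cells with many genes of cell division stood out. In 7 cells 14 to 18 of the 18 G2/M genes were detected, and in the other 51 cells at most 6. They were 2 of the 10 Prox1-positive cells (20%, 95% interval 2.52 to 55.6) and 5 of the 47 Prox1-empty cells (10.6%, 3.55 to 23.1), shares whose intervals overlap widely. The 7 cells had a median of 4375 genes, against 2941 in the 51 others. S phase genes were spread more evenly, with 3 to 14 of 16 per Prox1-positive cell (median 8) and 1 to 15 per Prox1-empty cell (median 5).

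**Figure D4:**
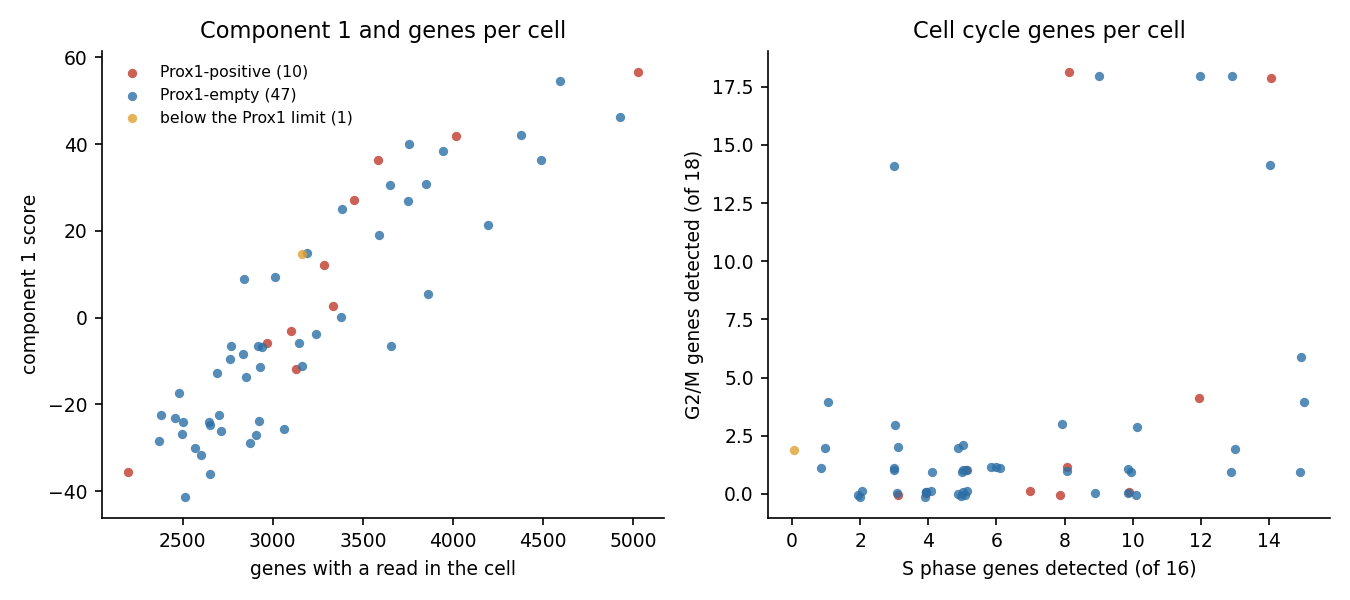
Left, score on the first principal component against the number of genes with a read, and right, number of S phase genes (of 16) against number of G2/M genes (of 18) detected, for each of the 58 collagen cells (points, shifted slightly in the right panel to part ties). Colours mark Prox1-positive (10), Prox1-empty (47) and the cell just below the Prox1 limit (1). The score rises with genes per cell (r = 0.90) on both sides, and 7 cells, 2 of them Prox1-positive, stand above 13 G2/M genes.

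Pericyte genes varied from cell to cell, and grouping of cells by them was not tested. At most 6 of the listed pericyte and smooth muscle genes were detected in a collagen cell, with 1 exception. Pdgfrb was detected in 36 of the 58 cells, Rgs5, a regulator of G-protein signals in pericytes, in 35 and the intermediate filament gene Des in 32. Kcnj8 and Abcc9, the subunits of a potassium channel of mural cells, were detected in 17 and 13 cells and together in 8. Rgs5 overlapped with Kcnj8 in 10 cells, 25 had only Rgs5 and 7 only Kcnj8. Most of the contractile genes were rarer: Acta2 was detected in 3 cells, Myh11 in 1 and Tagln in 0, and Cnn1 had no read. The contractile gene Myl9 was not rare, with detection in 19 of the 57 cells other than the exception below. Its mean was 1.68 higher in Prox1-positive cells, a difference of 1.06 without the cell of well E5 and 1.11 without that of well F12. Of 16 listed genes 7 were counted between the sides, with a median of 0.22. Rgs5 averaged 6.97 ± 4.87 in Prox1-positive and 5.36 ± 4.65 in Prox1-empty cells. Pdgfrb averaged 4.23 ± 4.02 in Prox1-positive and 5.62 ± 4.42 in Prox1-empty cells, and its difference of -1.39 was -0.92 without the cell of any 1 of wells E5, E6 and F8. Abcc9 had no read in the 10 Prox1-positive cells and was detected in 12 of 47 Prox1-empty cells.

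The exception was 1 Prox1-empty cell with 13 pericyte and smooth muscle genes detected, where no other collagen cell had more than 6. It held Acta2 at 10.96, Myl9 at 10.57, Heyl at 10.09, Notch3 at 9.75, Kcnj8 at 9.74 and Rgs5 at 9.28. Acta2 is the actin of smooth muscle, and Heyl is a target of Notch receptors. Of the 13 stroma genes it held 8, among them Itm2a at 11.09, Sparcl1 at 10.96, Cd248 at 10.50 and Ptn at 8.52, where the median collagen cell held 9.5. It had no read of the others, Pdgfra, Islr, Tgfbi, Twist1 and Prrx1, and the lowest Col1a1 of all 58, at 8.47. It had 825946 reads and 4925 genes, the most genes of any Prox1-empty cell, and 15 of the 16 S phase genes. It was also the 1 collagen cell with a lymphatic endothelium gene detected, Reln at 9.02, and it held 2 blood endothelium genes with a summed level of 15.52. No doublet caller was run, and whether 2 cells shared the well was not tested.

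Markers of the mesothelium, the layer that covers the organ, were mostly absent. Wt1, a zinc-finger factor of mesothelium and its derivatives, was detected in 14 cells, 1 Prox1-positive and 13 Prox1-empty, with means of 0.60 ± 1.89 in Prox1-positive and 2.19 ± 3.57 in Prox1-empty cells. Aldh1a2, which makes retinoic acid, was detected in 3 cells. The other 7 listed genes in the table, among them Upk3b, Lrrn4 and Bnc1, had no read in any collagen cell, so Wt1 was the 1 mesothelial gene with a level in more than a few cells.

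Genes of the spleen primordium, which arises in the mesenchyme beside the dorsal pancreas, varied from cell to cell, and grouping by them was not tested. Tlx1, the homeobox gene on which the spleen depends, had a read in 1 of the 58 cells, at 9.05, and Nkx2-5 was detected in 4. Nkx3-2, a homeobox factor of both spleen and pancreatic mesenchyme, was detected in 22 cells and Barx1, a homeobox factor of stomach and spleen mesenchyme, in 14. Both were detected in 8, only Nkx3-2 in 14 and only Barx1 in 6. Nkx3-2 had means of 2.96 ± 3.83 in Prox1-positive and 2.99 ± 3.90 in Prox1-empty cells. Barx1 had means of 0.86 ± 2.71 in Prox1-positive and 2.34 ± 3.85 in Prox1-empty cells, and its difference of -1.49 was -2.34 without the cell of well F8, the 1 Prox1-positive cell that held it. No cell held more than 4 of the 6 listed genes.

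**Figure D5:**
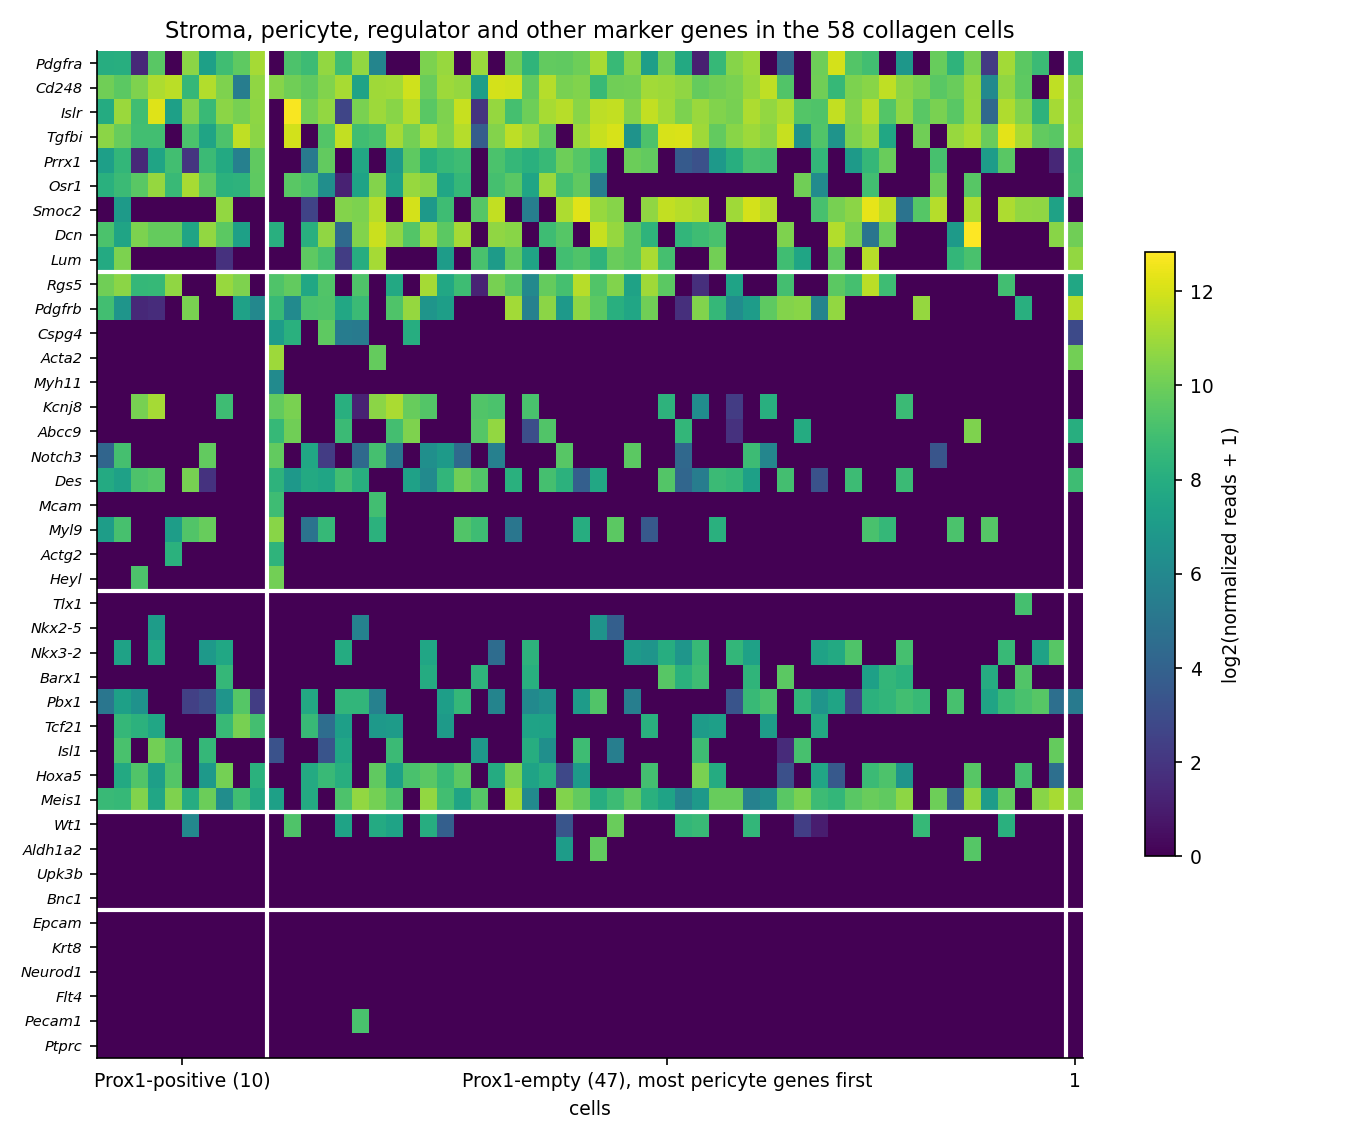
Level of stroma, pericyte and smooth muscle, spleen and regulator, mesothelium and other marker genes (rows, parted by white lines) in the 58 collagen cells (columns), as log2(normalized reads + 1) by colour. Columns run from the Prox1-positive cells (10) through the Prox1-empty cells (47, ordered by the number of pericyte genes detected) to the cell below the Prox1 limit (1). The first Prox1-empty cell holds 13 pericyte genes, Osr1 fills all 10 Prox1-positive columns, and Epcam, Krt8 and Neurod1 are empty throughout.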

How the data were processed

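Per the labels' protocols, GFP-positive cells were sorted into plates and made into Nextera XT libraries. Per the submitters' processing notes, STAR 2.5.3, Cufflinks and Cuffdiff 2.2.1 were used on GRCm38. No source used here gives the read counter, the annotation release or the filters. In 1 table the authors deposited log2 values for 20474 genes and 346 cells. No header names their scale, which was settled from the values: of the 241443 values of the 73 plate cells, 241438 lie within 0.01 of a whole number of reads once a step per cell is undone, so they were read as log2(reads / size factor + 1). Empty entries mean no read and were set to 0. One read was worth 0.951 to 2.48 normalized reads.

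Means, SDs over cells and differences of means (Prox1-positive minus Prox1-empty) were computed with python 3.11.15, numpy 2.4.6, pandas 2.3.3 and scipy 1.17.1, and drawn with matplotlib 3.10.9. Genes with a mean of at least 1 on a side were counted, and 5 normalized reads counted as detected. With 1 sample on each side no test was made. Variable genes are those whose SD lies farthest above the median SD of 20 bins of mean level, among genes in at least 20% of cells. Named genes are the 12 highest and 12 lowest differences by their smallest size when each Prox1-positive cell is left out, detected in at least 50% of 1 side, without mitochondrial, ribosomal, predicted, Xist, Y-linked and date-like names. One of the lower genes is not reported here. For lists, members with the largest differences or SD, defining markers and members at 0 are named. The members and lists were chosen with earlier results of these data known. Groups of dividing cells, the narrow bins and gene pairs were described after the values were seen. No doublet caller was run. Steps were tested on simulated data. Exact Clopper-Pearson intervals are at 95%, a count of 0 allows 3 counts of the total, and both cover counting error only, since PCR reads are not independent molecules. Alternatives were other pseudocounts, linear means, scalings, thinning, limits, filters and leaving out cells. Coordinates are from GENCODE M21.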

Additional observations from a re-analysis of the deposited data

Results flagged for a closer look

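Among 11 measures examined for a cell that lies far from the other 9 Prox1-positive cells, 1 did. Cd248 was 5.46 in the cell of well H4, and its gap to the next lowest value made up 0.515 of the whole range, above the critical value of 0.466. Chance alone flags about 5% of groups in this way for 1 measure. With 11 measures examined, at least 1 flag by chance is more likely than that. The same cell had the highest Col1a1 (12.77) and the second highest Prox1 (9.22) of the Prox1-positive cells.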

How the results depend on the processing

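Of 378 values recomputed under alternatives for the main results, 367 stayed within 1.5 times of a count, or within 1 SD over cells of a list's level, and 11 moved. For list medians that measure was too wide to tell: the SD ran from 0.73 for imprinted growth to 2.75 for G2/M genes, against medians of -0.30 to 0.97. By it no list median moved, yet 31 of the 300 recomputed had the opposite sign, in 8 of 12 lists. Leaving out 1 cell was part of the rule that named genes, so it says nothing of their stability. Under the other 15 alternatives all 24 named genes kept their sign, and 23 stayed past 1 with the ratio of linear means. Some of these could not move a named gene. The limit of 8 for Col1a1 kept the same 10 and 47 cells, and the filters on mean level changed only which genes were counted. The genes were also picked for large differences in these same cells, so the kept signs do not measure stability. A pseudocount of 10 left 801 genes higher and 406 lower by at least 1, and counting only genes with a mean of at least 3 left 1228 and 438. Restricting the Prox1-positive side to the 6 cells with Prox1 of at least 6 gave 1970 genes lower. Leaving out each Prox1-positive cell in turn gave 1865 to 2290 genes higher and 1134 to 1472 lower. Counting any read as detection left 3 genes at least 50 points lower, and 50 normalized reads left 8 higher and 2 lower. Among list medians, G2/M was -1.16 with Prox1 of at least 6 and 1.35 with Col1a1 of at least 10, pericyte genes -0.95 and 1.17 under the same limits, and spleen genes 1.46 at a mean of at least 3. Of the 20 genes leading the first component, 11 were shared with 500 variable genes and 7 after leaving out the 7 cells with many G2/M genes. Of the 15 most variable genes, 5 were shared with 100 bins. The last 2 alternatives were added after seeing the data, and the cause was not tested. No paired analysis was possible because each sample is 1 cell whose replicate number only names it, and no test was run.

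A count of 0 in the 10 Prox1-positive cells allows a share of up to 30%, so their absent genes are bounded loosely. All cells come from 1 plate, so plate, litter and animal cannot be told apart from the stage. Most differences lie within the spread over cells, and leaving out 1 Prox1-positive cell moved the list medians of pericyte genes between -0.15 and 0.68, spleen genes between -0.58 and 0.23, imprinted genes between -0.28 and 0.05, and Prox1 partners between -0.81 and 0.23, across 0 in each.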
